A study of Mus musculus with 8 samples.

Results

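The genes described here encode the secreted proteins of the complement and blood clotting systems that hepatocytes make, from the first complement proteases to fibrinogen, plasminogen and their inhibitors. They were found in the count table by their gene symbols, and 39 of the 40 genes on the list were present among 33212 genes. C1s1, which encodes a protease of the C1 complex, was not found under that symbol. All 39 passed the filter on low counts, which kept 15291 genes. Liver RNA came from 4 Nnmt KO mice, in which Alb-Cre removes a floxed Nnmt gene from hepatocytes, and from 4 control mice, which carry the same floxed alleles without Cre by the study's description and are labelled WT. Both groups were male C57BL/6 mice fed a diet lacking methionine and choline (MCD diet) for 8 weeks, so no liver on a normal diet stands beside them. The age of these mice is not given in the sources used here. NNMT methylates nicotinamide, and the comparison asks which genes differ in the damaged liver when hepatocytes lack it. Since the table's columns are named by genotype alone, the livers are lettered a to d within a genotype by column order.

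Complement is a cascade of plasma proteases. The classical and lectin routes cleave C4 and C2, the alternative route uses factor B and properdin, all routes meet at C3, and C5 to C9 then assemble a pore in the target membrane. Clotting runs through serine proteases of which several need vitamin K for carboxylation of their calcium-binding residues, ends in thrombin, and converts fibrinogen to fibrin, which plasmin dissolves. Hepatocytes secrete most of these proteins and their inhibitors, many of them under HNF4 and C/EBP transcription factors, and part of the group belongs to the acute phase response.

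Total counts per library were between 75020072 and 87934362, at which 3 counts stand for at most 0.04 CPM (the count scaled to the library total), far below the least abundant of these genes at 30.6 CPM. Values below are CPM after edgeR's TMM scaling. The targeted gene Nnmt was at 57.1 ± 23.1 CPM in Nnmt KO livers and 139 ± 60.5 CPM in control livers (SD, n = 4 each). It was at 112, 224, 134 and 84.9 CPM in control livers a to d and 31.8, 44.8, 68.9 and 83.0 CPM in Nnmt KO livers a to d, so that no livers overlapped and the transcript was still present in every Nnmt KO liver. The log2 fold change was -1.28 ± 0.33 (SE), with an edgeR adjusted p of 0.123, and a two-sided exact permutation test gave p = 0.0286, the smallest that 4 against 4 livers allow. Library a of the Nnmt KO livers stood apart from the rest of its group, with a TMM factor of 1.21 against 0.952 to 0.977. The labelled tissue was checked against 9 hepatocyte markers such as Alb, Ttr and Apoa1, whose summed level was 85039.7 to 141204 CPM in Nnmt KO and 96097 to 140885 CPM in control livers, the lowest of all in Nnmt KO liver a. In whole liver, fewer cells of a type and less RNA per cell cannot be told apart. Each p-value measures the spread between these livers, of which 1 library each was made.

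The 39 genes together took 3.36% to 4.38% of all counts in a library. Per kilobase of exon, C3, the point where all complement routes meet, had the highest level at 2030.1 CPM per kb and ranked 27 among 15146 genes with a known length. It was followed by the fibrinogen chain genes Fga at 1244 and Fgg at 1129 CPM per kb, and by Vtn, which encodes vitronectin, at 944 CPM per kb. At the other end were F11, which encodes clotting factor XI, at 13.7, the pore component gene C6 at 9.82 and Pros1, which encodes the anticoagulant protein S, at 7.81 CPM per kb, ranked 3955.

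Few of these genes differed between the genotypes. By edgeR's quasi-likelihood test, 0 of 39 passed an adjusted p of 0.05 over all tested genes, where 0.32% of all genes did. By DESeq2's Wald test C6 was higher and Serpinf2, which encodes the plasmin inhibitor α2-antiplasmin, was lower, 1 gene in each direction where 1.46% of all genes were higher, 2.06% lower and 3.53% either. At a nominal (unadjusted) p under 0.05 edgeR and DESeq2 both gave the same 5 genes, of which 2 were higher in Nnmt KO mice (C6 and Pros1) and 3 were lower (Serpinf2, Serpina10 and F7). The shares of all tested genes at that edgeR threshold were 5.45% higher and 7.13% lower, so 5 of 39 genes were close to the 12.6% found over the whole table. The 4 Nnmt KO livers did not overlap the 4 control livers for C6 and Pros1, both higher, and for Serpinf2, lower, where 8.16% of all genes had no overlap (3.34% higher, 4.81% lower). The 16 complement genes lay at a median log2 fold change of -0.04 and the 23 clotting and fibrinolysis genes one of -0.19.

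Differences beyond 2-fold lay outside most intervals. The 95% interval of the log2 fold change (Nnmt KO minus control) lay within 2-fold in both directions for 38 of the 39 genes, the exception being Fgb with -1.01 to 0.09, and within 1.5-fold for 17. The median log2 fold change was -0.16, with 26 genes below 0 and 13 above, while the median of all tested genes was 0.02 with 47.7% below 0 and 52.3% above. Abundant genes as a whole lay lower in Nnmt KO livers, since of the 4162 tested genes at or above the level of the lowest of the 39, 62.4% were below 0 and 37.6% above, with a median of -0.06. Without Nnmt KO liver a the median of the 39 genes was -0.03 (22 below 0), and without control liver b it was -0.02 (23 below 0).

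**Figure D1:**
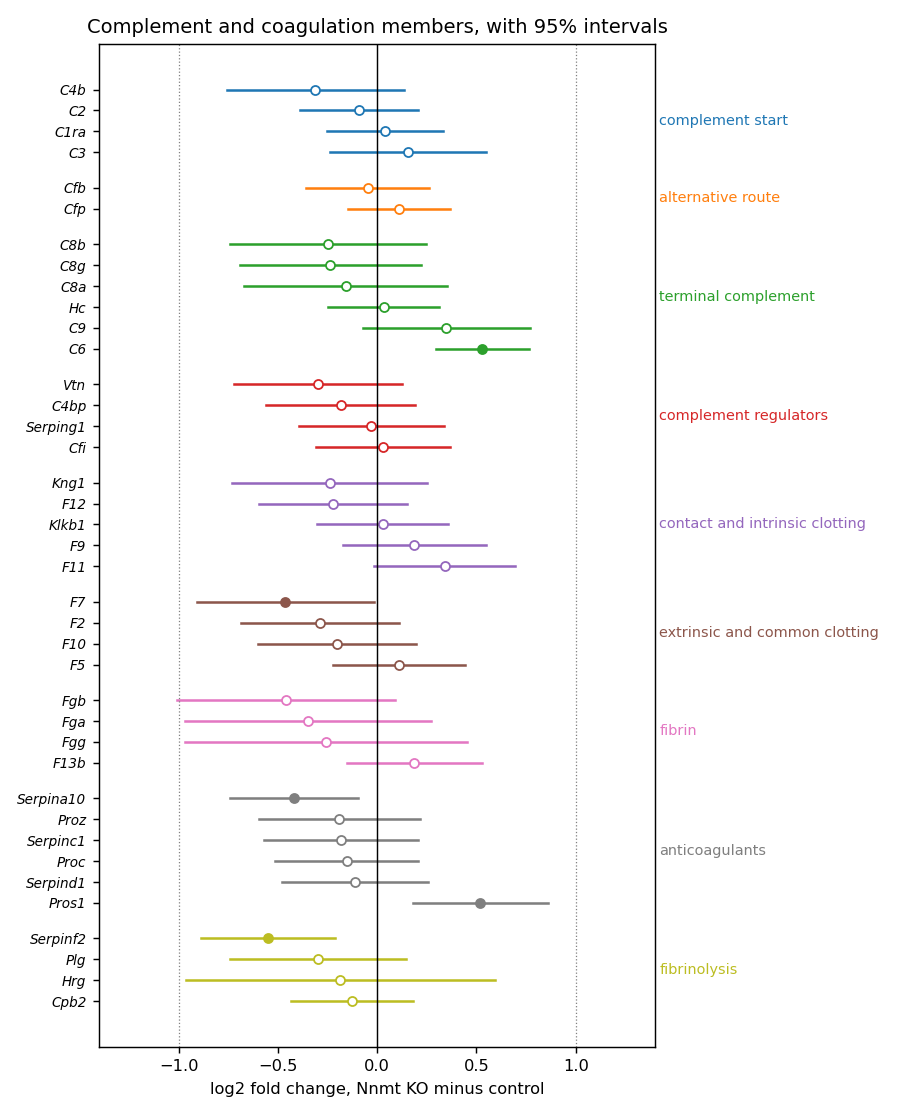
Each point gives the log2 fold change (Nnmt KO minus control, x axis) of 1 gene and each line its 95% interval from edgeR's fit, with genes grouped by role on the y axis and filled points for a nominal p under 0.05. Of 39 intervals, 34 contain 0, and the dotted lines at -1 and 1 mark a 2-fold difference.

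C6 (ENSMUSG00000022181, GRCm38 chromosome 15, 4727175 to 4814967, plus strand) encodes the complement component that joins C5b to start the membrane pore. C6 was at 25.1, 29.0, 29.7 and 30.5 CPM in control livers a to d and at 38.2, 45.5, 38.0 and 43.4 CPM in Nnmt KO livers a to d. Every Nnmt KO liver was above every control liver, and the means were 41.3 ± 3.77 CPM and 28.6 ± 2.40 CPM (SD, n = 4 each). The log2 fold change was 0.53 ± 0.11 (SE), with an edgeR adjusted p of 0.0711. It had the smallest spread within genotypes of all 39 genes, a standard deviation of 0.13 on the log2 scale, and its log2 fold change stayed between 0.48 and 0.57 with each liver left out in turn. DESeq2 gave C6 an adjusted p of 0.000619, and edgeR gave 0.0462 without Nnmt KO liver a.

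Serpinf2 (ENSMUSG00000038224, GRCm38 chromosome 11, 75431732 to 75439591, minus strand) had the lowest log2 fold change of the group. Serpinf2 was at 940.02, 1124, 807 and 877 CPM in control livers a to d and at 515, 736, 642 and 664 CPM in Nnmt KO livers a to d. The 4 Nnmt KO livers were all below the control livers, the nearest being Nnmt KO liver b and control liver c. The Nnmt KO mean was 68.2% of the control mean, with a log2 fold change of -0.55 ± 0.15 (SE, edgeR adjusted p = 0.157). DESeq2's adjusted p for Serpinf2 was 0.0131. Its target plasminogen, encoded by Plg, was at 1388, 1847, 1244 and 1368 CPM in control livers a to d and 774, 1399.99, 1300.1 and 1279 CPM in Nnmt KO livers a to d, with overlap between the genotypes. The ratio of Plg to Serpinf2 within a library was 1.48 to 1.64 in control livers, 1.90 to 2.02 in Nnmt KO livers b to d and 1.503 in Nnmt KO liver a, inside the control range.

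Pros1 (ENSMUSG00000022912, GRCm38 chromosome 16, 62854307 to 62929346, plus strand) encodes protein S, the cofactor of activated protein C. Pros1 was at 19.6, 29.2, 26.7 and 29.5 CPM in control livers a to d and at 30.8, 34.4, 41.7 and 43.5 CPM in Nnmt KO livers a to d. The gap between the genotypes was narrow, from 29.5 CPM in control liver d to 30.8 CPM in Nnmt KO liver a. Its log2 fold change was 0.52 ± 0.15 (SE, edgeR adjusted p = 0.186), and the nominal p stayed under 0.05 in all 12 alternative analyses. Pros1 is also expressed outside hepatocytes, as in endothelium and macrophages. The 7 markers of stellate cells and fibroblasts all had log2 fold changes above 0. Of them, 3 (Lrat, Reln and Dcn) were higher at a nominal edgeR p under 0.05, where 5.45% of all tested genes were. The 7 markers summed to 336 to 510.5 CPM in control livers, 801 CPM in Nnmt KO liver a and 447 to 485 CPM in the other 3 Nnmt KO livers. The 7 endothelial markers summed to 165 to 326 CPM in control livers and 206 to 238 CPM in Nnmt KO livers. Of them, 0 passed that threshold in either direction. The 6 tested markers of Kupffer cells and macrophages summed to 339 to 638 CPM in control livers and 499 to 667 CPM in Nnmt KO livers. Their log2 fold changes were above 0 for 5 and below 0 for 1, with 0 past that threshold. The part of these cells in the level of Pros1 was not tested.

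Serpina10 (ENSMUSG00000061947, GRCm38 chromosome 12, 103614786 to 103631444, minus strand) and F7 (ENSMUSG00000031443, GRCm38 chromosome 8, 13026034 to 13035809, plus strand) were lower at a nominal p under 0.05, with overlapping livers. Serpina10 encodes the inhibitor that acts with protein Z on activated factor X. Serpina10 was at 334, 396, 451 and 312 CPM in control livers a to d and at 272, 261, 256 and 329 CPM in Nnmt KO livers a to d, so that Nnmt KO liver d lay above control liver d. Its log2 fold change was -0.42 ± 0.15 (SE, edgeR adjusted p = 0.26). F7 encodes factor VII, which starts clotting together with tissue factor. F7 was at 67.1, 90.9, 48.2 and 53.5 CPM in control livers a to d and at 34.2, 49.98, 55.0 and 49.4 CPM in Nnmt KO livers a to d. Control livers c and d lay among the Nnmt KO livers, and the log2 fold change of -0.46 ± 0.20 (SE, edgeR adjusted p = 0.382) had a nominal p under 0.05 in 6 of 12 alternative analyses.

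**Figure D2:**
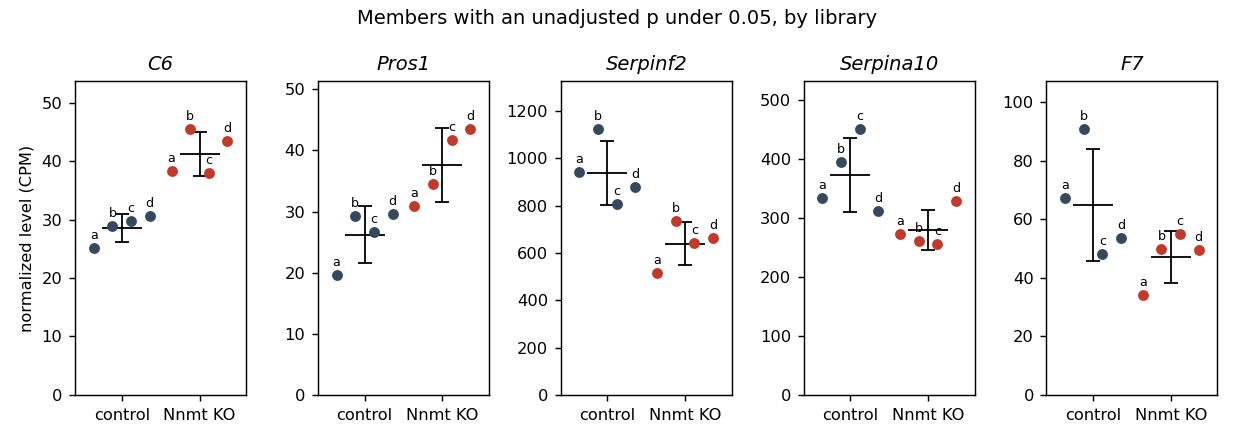
CPM after TMM scaling (y axis, from 0) of the 5 genes in each control and Nnmt KO liver (x axis, points lettered a to d), with the mean and SD of 4 livers as the black bar. The genotypes do not overlap for C6, Pros1 and Serpinf2 and overlap for Serpina10 and F7.

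Among the genes of the early complement routes, 0 of 4 passed a nominal p of 0.05. C3 was at 8912, 12573, 9136 and 8899.6 CPM in control livers a to d and at 9749.5, 10985, 12411 and 10863 CPM in Nnmt KO livers a to d. Control liver b was the highest of all, the other control livers were the lowest, and the log2 fold change was 0.16 (95% interval -0.24 to 0.55). C4b, which encodes complement C4, was at 514, 1085, 613 and 701 CPM in control livers a to d and at 584, 592, 604 and 570.02 CPM in Nnmt KO livers. Control liver b was again high, and the log2 fold change of -0.31 moved to -0.04 without it. The log2 fold changes of C1ra (a C1 protease) and C2 (cleaved by that complex) were 0.04 and -0.09. C4b has a close copy in C4a and C1ra in C1rb, and the counting could have split their reads. Of the alternative route, Cfb (factor B) was at 1382, 1600.1, 1248 and 1343 CPM in control and 1132, 1423, 1474 and 1366 CPM in Nnmt KO livers, a log2 fold change of -0.05. Cfp (properdin), which is made by leukocytes as well, was at 26.6, 33.5, 27.2 and 36.3 CPM in control and 34.4, 33.1, 32.2 and 33.7 CPM in Nnmt KO livers. Its log2 fold change was 0.11 (95% interval -0.15 to 0.37). Neither gene separated the genotypes.

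In the terminal pathway, the log2 fold changes of C6, C9 and Hc were above 0 and those of the C8 chain genes below, and C6 was the 1 of 6 that passed a nominal p of 0.05. C9, the last and repeated unit of the pore, was at 36.4, 62.9, 51.2 and 54.1 CPM in control livers a to d and 57.8, 61.5, 52.9 and 88.3 CPM in Nnmt KO livers a to d. Nnmt KO liver d was the highest and control liver a the lowest, and the log2 fold change was 0.35 (edgeR adjusted p = 0.478). The log2 fold changes of C8a, C8b and C8g, which encode the chains of C8, were -0.16, -0.25 and -0.24, and that of Hc, which encodes C5, was 0.03 (95% interval -0.25 to 0.31). The complement regulators Cfi, C4bp and Serping1 (factor I, C4b-binding protein and the C1 inhibitor) had log2 fold changes of 0.03, -0.18 and -0.03. C4bp was at 826, 900.3, 826 and 887 CPM in control livers a to d and at 506, 845, 799.7 and 878 CPM in Nnmt KO livers a to d. Nnmt KO liver a was far below the other 7 livers, which overlapped between the genotypes. Vtn, whose product vitronectin holds back the pore, was at 2192, 2628, 1865 and 1771 CPM in control livers a to d and at 1191, 1893, 1855 and 1942 CPM in Nnmt KO livers a to d. Control livers c and d lay within the range of the Nnmt KO livers, and the log2 fold change was -0.30 (95% interval -0.72 to 0.13).

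Of the contact and intrinsic clotting genes, 0 of 5 passed a nominal p of 0.05. F11 was at 22.9, 27.5, 23.9 and 33.8 CPM in control livers a to d and 26.9, 35.1, 32.3 and 42.4 CPM in Nnmt KO livers a to d. Control liver d lay above Nnmt KO livers a and c, and the log2 fold change was 0.34 (edgeR adjusted p = 0.413), or 0.44 without Nnmt KO liver a (edgeR adjusted p = 0.235). Kng1, which encodes the kininogen from which bradykinin is cut, was at 2339.9, 3631, 2269 and 2359 CPM in control and 1459, 2297, 2533 and 2699 CPM in Nnmt KO livers. Control liver b was the highest for Kng1 and Nnmt KO liver a the lowest, and the log2 fold change was -0.24. Kng2 is a close copy of Kng1, and the counting could have split their reads. F9 (factor IX), F12 (factor XII) and Klkb1 (plasma kallikrein) had log2 fold changes of 0.19, -0.22 and 0.03. In the GENCODE annotation, the row named Klkb1 (ENSMUSG00000031640) carries the symbol Gm45753. F9 lies on the X chromosome, as does Cfp, where the median of 462 tested genes was 0.13. In the extrinsic and common route, F2, which encodes prothrombin, was at 1953, 2189.6, 1640.3 and 1692 CPM in control and 1057, 1746, 1665 and 1655 CPM in Nnmt KO livers. Nnmt KO liver a was far below the rest, and the other 3 Nnmt KO livers were close to control livers c and d. The log2 fold change of F2 was -0.29 (95% interval -0.69 to 0.11), that of F10 (factor X) -0.20 and that of F5 (factor V) 0.11.

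The remaining anticoagulant genes Proc (protein C), Proz (protein Z), Serpinc1 (antithrombin) and Serpind1 (heparin cofactor II) had log2 fold changes between -0.19 and -0.11, none at a nominal edgeR p under 0.05. Of the fibrinolysis genes, Cpb2, whose product trims fibrin and so protects it, had -0.13 and Plg -0.30 (95% interval -0.74 to 0.14). Hrg, which encodes histidine-rich glycoprotein, varied most within genotypes, with a standard deviation of 0.67 on the log2 scale. Hrg was at 642, 1138, 427 and 507 CPM in control livers a to d and at 259, 664, 742 and 721 CPM in Nnmt KO livers a to d. The highest control liver and the lowest Nnmt KO liver of Hrg stood far from the rest, and the log2 fold change of -0.19 turned to 0.19 without control liver b and to 0.06 without Nnmt KO liver a.

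Groups that cut across these roles were compared by their counts. Of the 7 vitamin K-dependent factors (F2, F7, F9, F10, Proc, Pros1 and Proz), 5 lay below 0 and 2 above, with log2 fold changes from -0.46 for F7 to 0.52 for Pros1. The 5 serpins, Serping1, Serpinc1, Serpind1, Serpinf2 and Serpina10, had log2 fold changes from -0.55 to -0.03, all below 0. Of these, 2 were lower at a nominal edgeR p under 0.05, where 7.13% of all tested genes were. Of tested genes at or above the level of the lowest of the 39, 62.4% lay below 0. With 1 liver left out, Serping1 reached 0.17 and Serpind1 0.01. Several genes of the group are neighbours in the genome. F7, F10 and Proz follow each other on chromosome 8 from 13026034 to 13076026 on the plus strand, with log2 fold changes of -0.46, -0.20 and -0.19. F11 and the row named Klkb1 lie side by side on the same chromosome, at 0.34 and 0.03. C2 and Cfb, which are adjacent on chromosome 17 on the same strand, had -0.09 and -0.05. C8a and C8b on chromosome 4 had -0.16 and -0.25, and C6 and C9, which lie within the same few megabases of chromosome 15, had 0.53 and 0.35. None of the 39 genes lies on chromosome 7, whose 1154 tested genes had a median of -0.14.

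After Hrg, the fibrinogen chain genes Fgg and Fga varied most among livers of 1 genotype, with standard deviations of 0.58 and 0.49 on the log2 scale. Fga, Fgb and Fgg encode the Aα, Bβ and γ chains that are joined in equal number into fibrinogen, and they lie in 1 cluster on chromosome 3, from 83007724 to 83049863. Fga was at 2798, 5557, 5519.8 and 2897 CPM in control livers a to d and at 2228, 3387, 3138 and 4432 CPM in Nnmt KO livers a to d. Fgb was at 2174, 3749, 4188 and 2525 CPM in control livers a to d and at 1616, 2303, 2164 and 3097 CPM in Nnmt KO livers a to d. Fgg was at 1590.4, 3200.1, 3743 and 1765 CPM in control livers a to d and at 1348, 2002, 1944 and 3314 CPM in Nnmt KO livers a to d. Control livers b and c and Nnmt KO liver d were high for all 3 genes, and Nnmt KO liver a was the lowest. The summed level was 7743 ± 2336 CPM in Nnmt KO livers and 9927 ± 3554 CPM in control livers (SD, n = 4 each), so that the genotypes differed by less than the spread within them. The log2 fold changes were -0.35, -0.46 and -0.26, with edgeR adjusted p of 0.649, 0.474 and 0.779. F13b, whose product carries the enzyme that crosslinks fibrin, did not share this pattern and was between 65.0 and 117 CPM, with a log2 fold change of 0.19.

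The proportions of the chains varied less than their levels. The ratio of Fga to Fgb within a library was 1.15 to 1.48 over the 8 livers, and that of Fgg to Fgb 0.699 to 1.07, whereas Fgg itself ran from 1348 to 3743 CPM. Control liver c was the highest of the 8 for 3 genes, Fgb, Fgg and Serpina10. The summed level of 8 acute phase genes, Saa1, Saa2, Saa3, Orm1, Orm2, Hp, Apcs and Lcn2, was highest in control liver b (8384 CPM) and Nnmt KO liver d (7664 CPM), and lowest in Nnmt KO liver a (5537 CPM). Control liver c was at 6578 CPM, and the remaining livers between 5649 and 6523 CPM. Hp made up most of this sum, with 5517 CPM in control liver b and 3463 CPM in Nnmt KO liver a. Nnmt KO liver a was the lowest for Hp and Apcs. It was the highest of all livers for Saa2 (32.0 CPM), Orm2 (371 CPM) and Lcn2 (683 CPM), so the sum does not stand for each gene. The part of the acute phase genes in the fibrinogen levels was not tested.

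**Figure D3:**
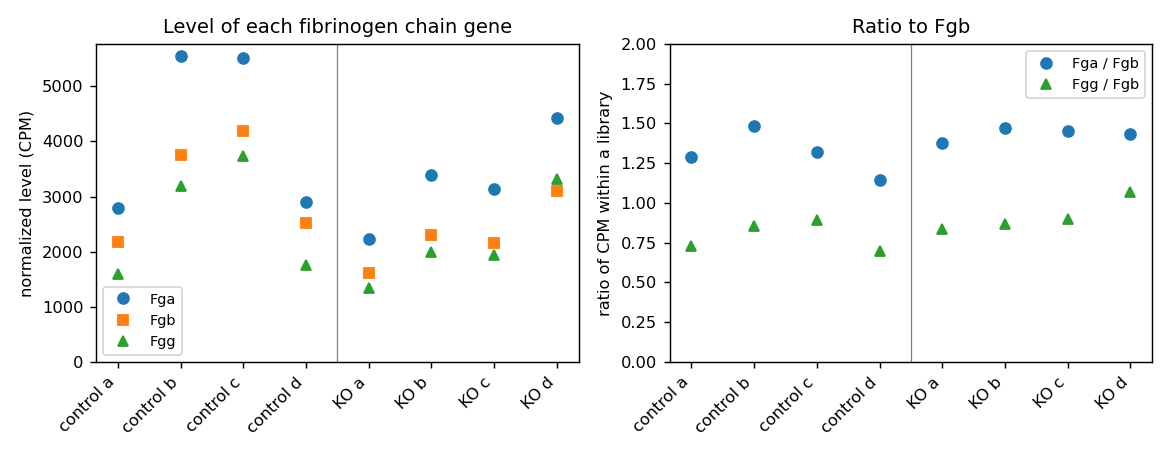
Left, CPM (y axis) of the 3 fibrinogen chain genes in each liver (x axis), and right, the ratio of Fga and of Fgg to Fgb within the same liver. The level of Fga ranges from 2228 to 5557 CPM and its ratio to Fgb from 1.15 to 1.48.

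The bases before the RefSeq start of these genes (GRCm38.p6) are shown for the fibrinogen cluster, whose members varied together, and for Serpinf2 and Pros1, the lower and higher genes without overlap with a window outside the gene. The windows searched held the 250 bases before the start. Each sequence reads 5′ to 3′ on the strand of its gene and ends at the base before the start, or before the first base of the gene in GENCODE where that comes earlier, which leaves out 77 bases of Fga and 90 of Serpinf2. Capitals mark TTGCNNAA, a core of C/EBP sites, on either strand.
Fga (chr3:83025903-83026075, plus strand): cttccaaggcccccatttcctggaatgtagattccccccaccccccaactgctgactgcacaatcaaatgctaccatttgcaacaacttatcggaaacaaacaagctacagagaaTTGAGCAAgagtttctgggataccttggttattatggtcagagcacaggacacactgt
Fgb (chr3:83049864-83050113, minus strand): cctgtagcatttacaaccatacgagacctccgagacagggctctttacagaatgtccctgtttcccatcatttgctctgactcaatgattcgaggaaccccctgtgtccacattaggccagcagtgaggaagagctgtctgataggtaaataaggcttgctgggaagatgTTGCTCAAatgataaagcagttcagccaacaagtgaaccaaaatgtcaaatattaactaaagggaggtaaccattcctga
Fgg (chr3:83007474-83007723, plus strand): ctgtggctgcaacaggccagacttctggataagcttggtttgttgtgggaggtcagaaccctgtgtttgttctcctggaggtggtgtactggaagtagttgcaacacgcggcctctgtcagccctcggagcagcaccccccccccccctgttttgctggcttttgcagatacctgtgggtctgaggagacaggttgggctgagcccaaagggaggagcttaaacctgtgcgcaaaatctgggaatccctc
Serpinf2 (chr11:75439592-75439751, minus strand): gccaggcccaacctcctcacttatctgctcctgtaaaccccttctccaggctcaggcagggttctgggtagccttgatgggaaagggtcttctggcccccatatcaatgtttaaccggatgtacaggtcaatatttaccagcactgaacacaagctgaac
Pros1 (chr16:62854057-62854306, plus strand): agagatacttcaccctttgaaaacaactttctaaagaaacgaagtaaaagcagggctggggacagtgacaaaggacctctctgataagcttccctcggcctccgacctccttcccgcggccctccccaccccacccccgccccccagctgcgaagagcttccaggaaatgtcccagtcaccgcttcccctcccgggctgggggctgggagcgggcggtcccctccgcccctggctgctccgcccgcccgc
Fga held this motif 135 bases before its start and Fgb 80 bases before, and the windows of Fgg, Serpinf2 and Pros1 did not hold it. Windows were at hand for 30 of the 39 genes (31 windows). TTGCNNAA was found in 8 (25.8%), those of C3, C9, F11, F9, Fga, Fgb, Hrg and Klkb1, and in 9.56% of all 32851 windows. A match in letters is a description and was not tested against the changes.

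The livers differed from each other across the whole group. Nnmt KO liver a was the lowest of the 8 for 28 of 39 genes, with a median deviation of -0.47 on the log2 scale from each gene's mean over all livers, and control liver b was the highest for 24, with a median of 0.30. The medians of the other 6 livers were between -0.07 and 0.09, and the median over all tested genes was between -0.00237 and 0.0247 in every liver. Nnmt KO liver a also had the highest summed markers of stellate cells (801 CPM), of Kupffer cells and macrophages (667 CPM, against 339 to 638 CPM in the other livers) and of cholangiocytes (278 CPM, against 49.9 to 177 CPM). Spp1 alone gave 243 CPM of the cholangiocyte sum in that liver. Krt7, Epcam and Sox9 were also highest there, and Krt19 was highest in control liver c. Of the stellate cell markers, Col1a1, Col3a1, Lrat, Dcn and Pdgfrb were highest in Nnmt KO liver a. Reln was highest in Nnmt KO liver c and Des in control liver c, so a high sum does not hold for each marker. The part of these cell types in the levels of the 39 genes was not tested. Without Nnmt KO liver a, 7 of the 39 genes had a nominal edgeR p under 0.05, 5 higher and 2 lower. The share of all tested genes in that fit is not given here. C6, Pros1, F9, F11 and F13b were higher, and Serpinf2 and Serpina10 were lower. C6 had an edgeR adjusted p of 0.0462, and F9, F11 and F13b had log2 fold changes of 0.32, 0.44 and 0.32.

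**Figure D4:**
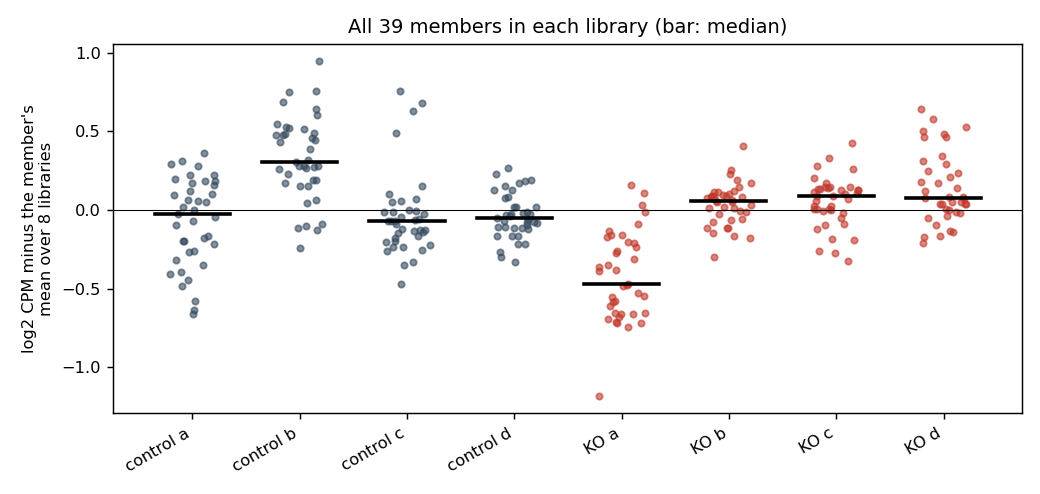
Each point is 1 of the 39 genes in a liver (x axis), as its log2 CPM minus its mean over the 8 livers (y axis), and the black bar is the median of the points. Nnmt KO liver a lies lowest with a median of -0.47 and control liver b highest with 0.30.

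Other genes of the same systems were listed as receptors, regulators and enzymes that are not on the list above. Of 59, 52 were tested, 0 passed edgeR's adjusted p of 0.05 and 3 passed DESeq2's, where 0.32% and 3.53% of all genes did. At a nominal edgeR p under 0.05, 3 were higher and 3 were lower (5.45% and 7.13% of all genes). The plasminogen activator genes Plat and Plau had log2 fold changes of 0.56 and -0.29 and the tissue factor gene F3 -0.08. Thbd (thrombomodulin) and Vwf (von Willebrand factor), both made by endothelium, passed that nominal threshold at 0.45 and 0.35 (edgeR adjusted p of 0.231 and 0.375), with overlap between the genotypes. Anxa2, whose product binds plasminogen on cell surfaces, passed it at -0.48 (edgeR adjusted p = 0.361).

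Ggcx and Vkorc1, whose products carboxylate the vitamin K-dependent factors and recycle vitamin K, were lower in Nnmt KO livers by DESeq2 and not by edgeR after adjustment. Ggcx was at 53.9, 49.5, 47.5 and 49.7 CPM in control livers a to d and 34.8, 40.9, 39.2 and 39.6 CPM in Nnmt KO livers a to d. No liver overlapped, and its log2 fold change was -0.38 ± 0.10 (SE), and the adjusted p was 0.119 by edgeR and 0.0122 by DESeq2. Vkorc1, which encodes the vitamin K epoxide reductase that warfarin inhibits, was at 128, 136, 113 and 84.4 CPM in control and 45.9, 80.5, 81.6 and 74.5 CPM in Nnmt KO livers. The genotypes again did not overlap, with a log2 fold change of -0.71 ± 0.20 (SE), and the adjusted p was 0.158 by edgeR and 0.0264 by DESeq2. Vkorc1 lies at 127893063 to 127895617 of chromosome 7, whose genes lay lower as a whole. Its paralog Vkorc1l1 had a log2 fold change of -0.02, and Lman1 and Mcfd2, the cargo receptor for factors V and VIII, had 0.01 and -0.21. Of 22 other complement genes, 0 passed a nominal edgeR p of 0.05. The C1q chain genes C1qa, C1qb and C1qc, which macrophages make, had log2 fold changes of 0.09, 0.07 and 0.06.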

How the data were processed

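Livers of 4 Nnmt KO and 4 control mice were sequenced. By the study's methods, the authors aligned and quantified reads with HISAT2. The submitters' processing notes also name StringTie and the build mm10. The annotation and any strand setting are not given in the sources used here. The deposited table holds raw whole-number counts. Reads of overlapping or closely similar genes could have been split by that step. Genes were filtered by edgeR's filterByExpr (minimum count 10), scaled by TMM and tested by the quasi-likelihood test of edgeR 4.0.16 in R 4.3.3, all 8 libraries in 1 fit, with Benjamini-Hochberg adjustment over 15291 genes. The standard error is the one implied by the F statistic, and 95% intervals use its degrees of freedom. DESeq2 1.42.0, scaling by DESeq2's size factors or by library size only, no filter, and each library left out in turn were alternatives. Totals of 75020072 to 87934362 counts set the precision, and floors cover counting error only. Positions and exon lengths came from GENCODE M21 (GRCm38), which held 15146 of the tested genes, and promoters from RefSeq. The edgeR script was tested on simulated data. The genes and lists were chosen with earlier results of these data known. Values in every library are given for genes with a nominal p under 0.05 or without overlap and for the 2 of largest change in each role. From the list of other pathway genes and the list of transcription factors, those with a nominal p under 0.05 were named, and any further genes in the text were chosen after their values were seen. Some genes of these lists enter the counts and are not reported here.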

Additional observations from a re-analysis of the deposited data

Results flagged for a closer look

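A single liver stood far from the other 3 of its genotype (Dixon's test at 95%) in 10 of 82 groups examined, where chance gives about 4.10. Of these, 7 concerned Nnmt KO liver a. Its TMM factor was 1.21, and it was low for Hrg (259 CPM against 664 to 742 CPM in its group), Vtn (1191 CPM against 1855 to 1942 CPM), F2 (1057 CPM against 1655 to 1746 CPM), F10 (291 CPM against 431 to 449 CPM), Proz (109 CPM against 171 to 180.2 CPM) and Serping1 (304 CPM against 364 to 372 CPM). Control liver b was high for C3 (12573 CPM against 8899.6 to 9136 CPM in its group), Kng1 (3631 CPM against 2269 to 2359 CPM) and Serping1 (493 CPM against 306 to 324 CPM). These genes share their livers and are not separate observations.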

How the results depend on the processing

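The count at edgeR's adjusted p of 0.05 was 0 of 39. It was 2 with DESeq2's Wald test, 1 at an adjusted p of 0.1, and 0 to 1 with each liver left out, the 1 being C6 without Nnmt KO liver a. With library-size scaling, 8 genes had a nominal p under 0.05 (3 higher, 5 lower) against 5, and 5 had no overlap (2 higher, 3 lower) against 3. That scaling moved the median of all genes to 0.07. The 6 other pathway genes at a nominal p under 0.05 became 5 to 10 with each liver left out, the 10 without Nnmt KO liver a (3 higher, 7 lower) or control liver d (5 higher, 5 lower). Apart from DESeq2's test, the shares of all tested genes under these alternatives are not given here. A rise or fall in these counts can therefore not be read as particular to these genes. The log2 fold change of Nnmt was -1.28 in DESeq2's test, with an adjusted p of 0.0043, against 0.123 in edgeR's. C6, Pros1, Serpinf2, Serpina10 and F7 kept their direction in all 12 alternatives, and the nominal p stayed under 0.05 in 12, 12, 12, 11 and 6 of them. No paired analysis was possible because the columns carry no mouse number.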

Other observations

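The row with the identifier of C1s1 in GENCODE (ENSMUSG00000038521) carries the symbol C1s in the deposited table. It was at 335, 332, 303 and 333 CPM in control livers a to d and 313, 355, 362 and 348 CPM in Nnmt KO livers a to d, a log2 fold change of 0.08 (95% interval -0.16 to 0.32), with overlap between the genotypes.

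Of 21 transcription factors and cytokine signalling genes known to regulate this group, 1 was higher and 3 lower by edgeR's nominal p under 0.05. The shares of all tested genes at that threshold were 5.45% higher and 7.13% lower. Of the 21, 0 passed edgeR's adjusted p of 0.05 and 2 passed DESeq2's, where 0.32% and 3.53% of all genes did. Cebpa, the C/EBPα gene, was at 302, 303, 227 and 241 CPM in control livers a to d and 153, 187, 166 and 187 CPM in Nnmt KO livers a to d, without overlap. Its log2 fold change was -0.63 ± 0.13 (SE), and the adjusted p was 0.0778 by edgeR and 0.00108 by DESeq2, and it lies on chromosome 7, whose median was -0.14. Foxa2 was lower without overlap, at -0.52 (edgeR's adjusted p = 0.195). Prox1 was higher without overlap, at 0.49 (adjusted p = 0.12 in edgeR's test and 0.0136 in DESeq2's). Hnf4a and Stat3 had log2 fold changes of 0.18 and -0.02. Whether these genes bear on the levels of the complement and clotting genes was not tested.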
